A study of Mus musculus with 16 samples.

Results

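Mouse pluripotent cell lines that could make a whole animal were compared with lines that could not, over both ways in which the lines had been derived. All 16 cell lines of the series took part. The 8 fully pluripotent lines (F) were AN1, AN9, AN15, AN20, AI3, AI7, AI10 and GS32, and the 8 partially reprogrammed lines (P) were AN2, AN3, AN5, AN6, AN7, AI9, GS4 and GS9. The sample records do not carry the F or P state. It follows the study's tetraploid complementation assay, in which tested cells are placed with embryos whose own cells form extraembryonic tissue, and was assigned by line name.

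AN lines are nuclear transfer embryonic stem cells (ntESCs), derived on a feeder layer after nuclei of adipocyte progenitor cells (APCs) were put into enucleated oocytes. AI lines are induced pluripotent stem cells (iPSCs), made by giving doxycycline to such APCs. The APCs came from mice grown entirely from one iPSC line, so that F and P lines of both origins carried the same inducible reprogramming factors and the M2rtTA activator on the strain recorded as 129-M2rtTA. The ages of the donor mice are not given in the sources used here. There were 4 F and 5 P lines among the ntESCs, and 4 F and 3 P lines among the iPSCs, each grown with serum and LIF and each sequenced as 1 library. Passage was 5 to 7 for the AN lines and 7 for AI3, AI7, AI9 and AI10. GS4, GS9 and GS32 are iPSC lines identified earlier, at passages 17, 6 and 13. The records of GS9 and GS32 name GS4 as their source, so their assignment rests on their titles. No record places repeat cultures of a line in the series, and a cell line was the replicate.

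A pluripotent cell is held in its state by factors such as Pou5f1 (Oct4), Nanog and Sox2, which F and P lines both expressed. Reprogramming must also reset the somatic genome without erasing genomic imprints, the parental DNA methylation marks that leave a single allele of certain genes active. Imprinted genes are a known weak point of cultured and reprogrammed stem cells, since a mark that is lost or gained can double or silence a dose.

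A pair of imprinted genes, Zrsr1 and Grb10, stood among those with the smallest p-values, and the sequences around their transcription starts are given here because imprinting acts through methylation of the cytosine in CG pairs. Each runs from 250 bases before to 50 bases after the start in RefSeq (GRCm38.p6), 5′ to 3′ on the strand of the gene, with CG pairs in capitals.
Zrsr1, chr11:22971755-22972054, plus strand: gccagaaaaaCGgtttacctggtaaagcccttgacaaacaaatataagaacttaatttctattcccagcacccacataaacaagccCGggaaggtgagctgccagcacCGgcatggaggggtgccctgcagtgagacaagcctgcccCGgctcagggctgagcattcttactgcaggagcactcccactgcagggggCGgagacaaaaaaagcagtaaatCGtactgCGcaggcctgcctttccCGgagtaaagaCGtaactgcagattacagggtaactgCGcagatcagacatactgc
Grb10, chr11:12037371-12037670, minus strand: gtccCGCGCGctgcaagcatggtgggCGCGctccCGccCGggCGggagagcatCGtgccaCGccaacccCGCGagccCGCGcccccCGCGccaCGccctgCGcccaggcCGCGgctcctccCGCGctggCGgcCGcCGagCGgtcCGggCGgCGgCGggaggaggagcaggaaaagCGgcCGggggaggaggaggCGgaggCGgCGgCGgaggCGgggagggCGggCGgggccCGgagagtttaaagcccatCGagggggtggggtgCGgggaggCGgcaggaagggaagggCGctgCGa
The Zrsr1 window holds 10 CG pairs, a number reached by 43.5% of the 32851 promoter windows of this length. The Grb10 window holds 45, reached by 1.93% of them. A second Grb10 start in RefSeq, at chr11:12027922-12028221, holds 9. Methylation was not analysed here. Whether these windows cover the regions whose methylation controls the imprinting of the 2 genes was not examined.

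Expression was read as FPKM (reads scaled by transcript length and by the mapped reads of the library), which the authors calculated with Cufflinks. Differences are of mean log2(FPKM + 1), F minus P, with origin (AN or AI) as a block, and cover the 12027 of 22552 genes whose FPKM averaged 1 or more over the lines. In limma's test with Benjamini-Hochberg adjustment, F was higher for 0 genes (0% of those tested) and lower for 0 (0%) when the adjusted p had to be under 0.05. Without adjustment, a p under 0.05 was found for 264 genes with F higher (2.2%) and 532 with F lower (4.42%). The smallest adjusted p was 0.264, for Zrsr1, and the next was 0.717. The unadjusted counts leaned on single lines and on scaling. Leaving out 1 line gave 139 (without AN20) to 408 (without AI9) genes higher and 298 (without GS9) to 908 (without AI9) lower, and median-ratio scaling gave 391 higher and 387 lower. In data simulated on the same lines with 200 changed genes, the fit recovered 131 of them at a log2 change of 0.5 and 188 at a log2 change of 1. The simulated noise was independent between genes. It lacked the trends over length and GC and the differences in effect between AN and AI described below. The recovery therefore cannot tell which changes would have been found in the real lines.

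The lines were alike in depth and stood apart in sequence-related trends. Relative depth, read from the step between low FPKM values, ran from 0.961 to 1.26 (AN1 set to 1), and the number of reads itself is unknown. Genes for small RNAs took 15.8% to 28.1% of all FPKM, and 11665 to 11918 genes reached 1 FPKM. All 8 pluripotency markers had a median of at least 1 FPKM, and Pou5f1 ranged from 615 to 1222 FPKM. All 10 fibroblast markers also reached that level, while 1 of 6 extraembryonic endoderm markers and 1 of 6 trophoblast markers did, and the trophoblast gene Tpbpa was listed at 0 in every line. AN6 had the highest Krt8, a keratin of simple epithelia, at 662 FPKM against 17.8 to 180 in the other lines. In bulk RNA, fewer cells of a type and less RNA per cell cannot be told apart.

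The imprinted gene Zrsr1 was lower in all 8 F lines than in all 8 P lines. Zrsr1 encodes a zinc finger RNA-binding protein related to the splicing factor U2AF. It is a retrogene, expressed from the paternal allele, on chromosome 11 (mm9, 22873215 to 22876498, plus strand). It lies within the span of Commd1 (22734744 to 22882382) on the other strand. The AN F lines had 5.09 (AN1), 5.73 (AN9), 6.07 (AN20) and 6.85 FPKM (AN15). The AN P lines had 7.78 (AN5), 7.94 (AN2), 8.25 (AN3), 8.80 (AN6) and 8.85 FPKM (AN7). In iPSCs, AI F lines had 5.02 (AI3), 5.32 (AI10), 6.09 (AI7) and 6.98 FPKM (GS32), and AI P lines had 7.32 (AI9), 8.52 (GS4) and 9.72 FPKM (GS9). The groups did not overlap, and the gap between GS32 and AI9 was the narrowest point. The difference was -0.45 (SE 0.076) on the log2(FPKM + 1) scale, with an unadjusted p of 2.2e-05 and an adjusted p of 0.264 in limma. It was -0.43 in AN and -0.48 in AI.

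An exact two-sided permutation test of Zrsr1 within origins gave p = 0.000454, the smallest that the 4410 arrangements of these lines allow. Since the gene was picked for its small p among 12027, this value is no independent evidence. All 8 F lines below all 8 P lines was found for 2 genes (0.0166%), Zrsr1 and Zdhhc18, and all 8 F lines above all P lines for 0 genes (0%). In a search of 12027 genes, a count this small can arise without any change. Commd1, a regulator of copper handling and protein traffic, differed by -0.015 (adjusted p = 0.980 in limma), with 38.2 to 66.7 FPKM in F and 35.5 to 70.5 FPKM in P. The library kit does not mark strand, so reads of Zrsr1 and of Commd1 transcripts crossing it were not told apart. The X-linked paralog Zrsr2 differed by -0.15 (adjusted p = 0.739 in limma), and how reads shared by the paralogs were assigned was not examined.

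Grb10 had the largest difference among the 10 genes with the smallest p higher in F, small RNAs left out, and overlapped between the groups through a single line. It encodes an adaptor that binds the insulin and IGF receptors and restrains growth, is expressed from the maternal allele in most tissues, and lies on chromosome 11 (mm9, 11830511 to 11938686, minus strand). F lines had 36.8 (AN15), 36.9 (AI7), 39.9 (AN9), 44.9 (AI10), 45.1 (AN20), 45.6 (GS32), 46.1 (AN1) and 54.9 FPKM (AI3). P lines had 6.60 (GS9), 8.28 (GS4), 8.89 (AN6), 18.1 (AN7), 23.2 (AN3), 32.9 (AN2), 33.0 (AN5) and 53.002 FPKM (AI9). Among ntESCs the F and P lines did not overlap, and in the iPSCs GS4 and GS9 were low while AI9 stood with the F lines. The difference was 1.22 (SE 0.35, adjusted p = 0.717 in limma, unadjusted p = 0.00307), 0.95 in AN and 1.56 in AI. The exact two-sided permutation p was 0.00771. The F lines lay close together, while the P lines spread from 6.60 FPKM to the F range. Its neighbour Ddc differed by -0.15 (adjusted p = 0.827 in limma), with 0.034 in AN and -0.40 in AI. Cobl, on its other side, differed by 0.21 (adjusted p = 0.823 in limma), with 0.48 in AN and -0.15 in AI.

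**Figure D1:**
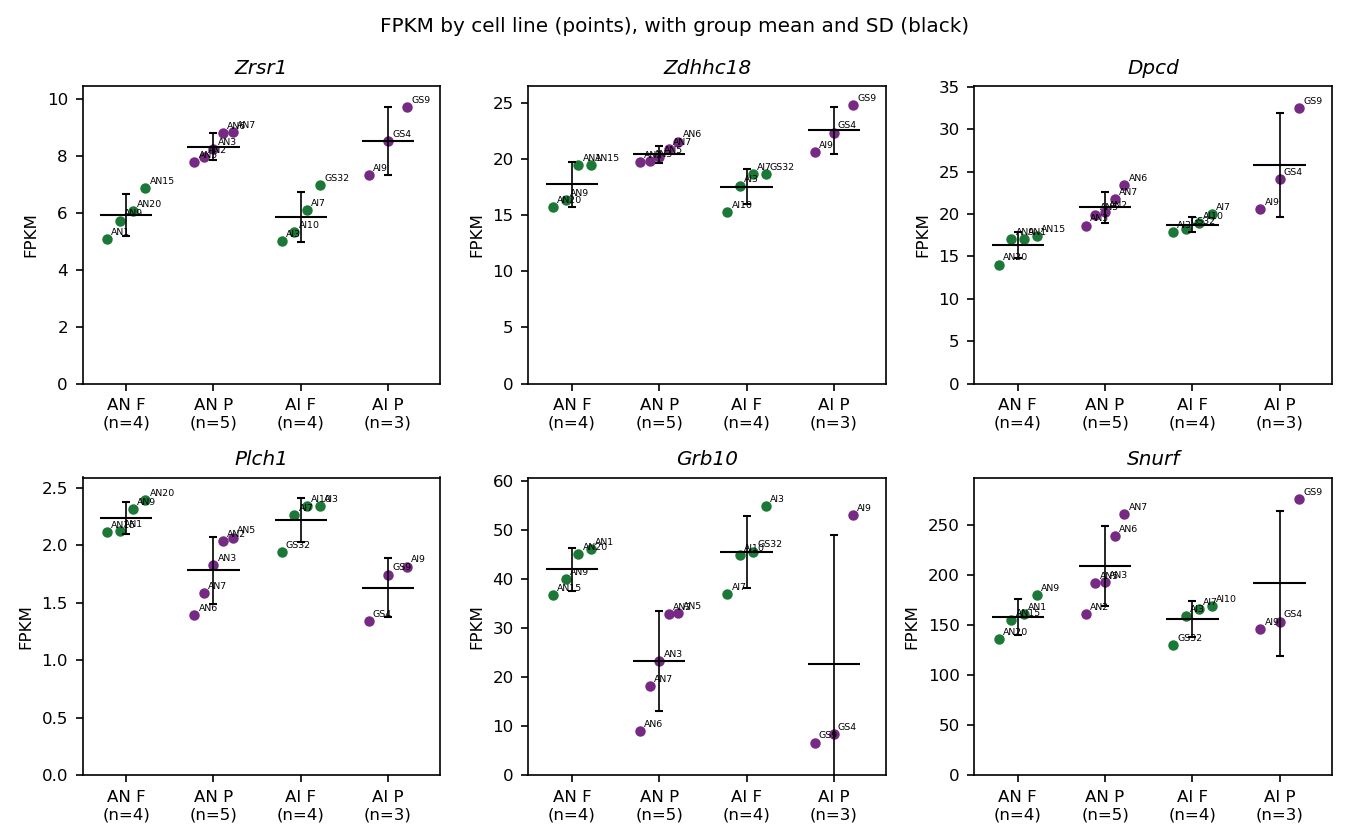
FPKM of 6 genes in each cell line (points) by origin and state, with the group mean and SD (black, cut at 0 below). All F lines lie below all P lines for Zrsr1 and Zdhhc18, and AI9 at 53.002 FPKM is the only P line within the F range for Grb10.

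Beside these, 3 genes had F and P lines on separate sides within each origin. F lay above P in both origins for 1 gene (0.00831%), Plch1, and below P in both for 3 genes (0.0249%), Zrsr1, Dpcd and Zdhhc18. With 12027 genes and 4410 arrangements of the lines, a few such genes are expected without any change. Their separation is therefore no independent evidence. Zdhhc18 encodes an enzyme that attaches palmitate to proteins. It had 15.3 to 19.5 FPKM in F (median 18.1) and 19.7 to 24.8 FPKM in P (median 20.7), a difference of -0.26 (SE 0.067, adjusted p = 0.717 in limma). AN15 among F and AN2 among P were the nearest. Dpcd, linked to cilia, had 14.0 to 19.97 FPKM in F (median 17.6) and 18.6 to 32.5 FPKM in P (median 21.2), a difference of -0.37 (SE 0.084). The pooled ranges overlapped only through F lines of AI and P lines of AN. Plch1, a phospholipase C that cleaves membrane phosphoinositides, had 1.94 to 2.39 FPKM in F (median 2.29) and 1.34 to 2.07 FPKM in P (median 1.78), a difference of 0.26 (SE 0.073). At this level a few reads could move a value, and the number of reads is unknown.

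The other genes of the 10 with the smallest p higher in F had differences from 0.19 (Wac) to 0.37 (Mobkl1a). Stk17b, a kinase tied to cell death, had 9.75 to 14.2 FPKM in F and 7.44 to 10.5 FPKM in P, with a difference of 0.33 (SE 0.081), and all 8 F lines lay above the median of the P lines. Cdk13, which phosphorylates RNA polymerase II, had 10.8 to 14.3 FPKM in F and 8.68 to 11.8 FPKM in P (0.28). Son, a splicing cofactor of nuclear speckles, differed by 0.27, and Jmjd1c, of the histone H3 lysine demethylase family, by 0.28. The Hippo pathway component Mobkl1a differed by 0.37, the ARF-like GTPase Arl5a by 0.31, the proteasome shuttle Ubqln2 by 0.27 and Wac, an adaptor of histone H2B ubiquitination, by 0.19. AN20 had the highest value of all 16 lines for Plch1, Stk17b, Mobkl1a, Arl5a, Jmjd1c, Son, Ubqln2 and Wac. None of them passed the test (adjusted p = 0.717 for each in limma).

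The named genes lower in F, beside the 3 above, were Cdk10, Lrrc61, Gm5918, BC002163, Wwox, Gstm4 and AA960436. Cdk10, a cyclin-dependent kinase, had 10.2 to 14.3 FPKM in F and 13.4 to 19.98 FPKM in P, with GS4 highest, and a difference of -0.36. Wwox, an oxidoreductase with WW domains, differed by -0.38 and Lrrc61 by -0.37. Gm5918 had 2.54 to 4.02 FPKM in F and 3.77 to 8.97 FPKM in P, and its highest value was in GS9. Gstm4 belongs to a family of near-identical glutathione transferases and BC002163 is a pseudogene, so how shared reads were assigned bears on both. All 7 had an adjusted p of 0.717 in limma.

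The differences followed transcript length over all genes. Lengths are those of the longest protein-coding transcript in the mm9 annotation, known for 11311 of the tested genes. Genes at an unadjusted p under 0.05 that were higher in F had a median length of 5648 bases, those lower in F 1581 bases, and all tested genes 2984 bases. The median difference went from -0.14 for the 674 genes under 1 kb to 0.11 for the 1275 genes over 6 kb. Of the genes under 1 kb, 109 were lower and 2 were higher at an unadjusted p under 0.05, and of those over 6 kb, 4 were lower and 112 were higher. Across genes, which are not independent replicates, Spearman's rho of the difference with length was 0.520, and it was 0.314 in AN and 0.318 in AI.

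**Figure D2:**
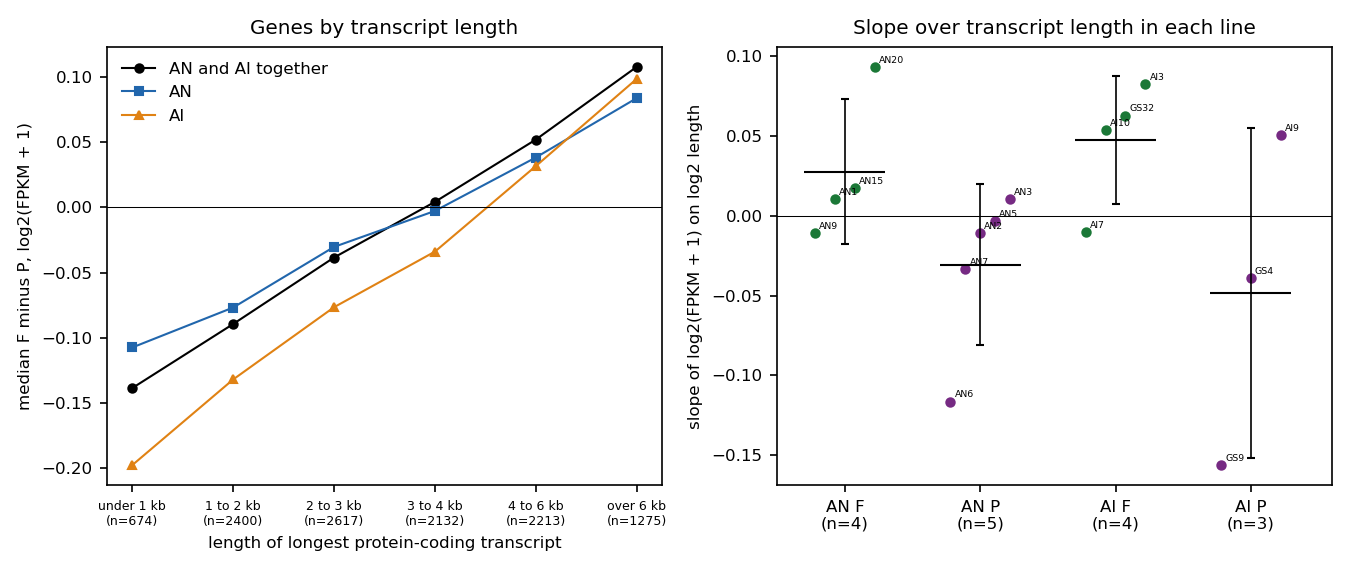
Left, median F minus P difference of log2(FPKM + 1) for genes grouped by transcript length, for AN, AI and both together. Right, the slope of each line's log2(FPKM + 1), relative to the mean of all lines, on log2 transcript length, with group means and SD. The medians go from -0.14 under 1 kb to 0.11 over 6 kb, and AN6 and GS9 have the lowest slopes.

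The slope over length in each line was -0.011 to 0.093 among F lines (median 0.035) and -0.16 to 0.050 among P lines (median -0.022). F slopes were higher by 0.074 on average (exact two-sided permutation test within origins, p = 0.01995). AN6 (-0.12) and GS9 (-0.16) were lowest, while the P lines AN2 (-0.011), AN3 (0.010), AN5 (-0.0033) and AI9 (0.050) were within the F range. The same permutation test gave p = 0.673 for relative depth, 0.896 for the small RNA share and 0.629 for the number of genes reaching 1 FPKM. For the slope over GC content the exact permutation p was 0.474, and the relation of the difference to GC ran opposite ways in the origins, with Spearman's rho of -0.533 in AN and 0.209 in AI. With the length trend of each line removed, 171 genes were higher and 254 lower at an unadjusted p under 0.05. Without AN6 and GS9 the counts were 198 and 240. Zrsr1 (3284 bases) is near the median length, Zdhhc18 (4580 bases) is longer than the median though lower in F, Dpcd (1345 bases) is shorter, and Plch1 (6299 bases) and Grb10 (5061 bases) are longer. The part of RNA quality or library preparation in the length trend was not tested.

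Imprinted genes were also counted by the parental allele they are expressed from. Of 30 listed maternally expressed genes, 18 were tested, 1 was higher (Grb10, 5.56%) and 0 were lower at an unadjusted p under 0.05. Over all genes, 2.2% were higher and 4.42% lower. The list's median difference was 0.17 (0.024 in AN, 0.29 in AI) against -0.012 for all genes. The growth inhibitor Cdkn1c differed by 0.50 (unadjusted p = 0.130) and the IGF2 receptor Igf2r by 0.30 (unadjusted p = 0.0933). Of 35 listed paternally expressed genes, 26 were tested, 0 were higher and 2 were lower (7.69%), with a median of -0.025. The 2 were Zrsr1 and Snurf, the small protein reading frame at the Snrpn imprinting centre. Snurf had 130 to 180 FPKM in F (median 159.9) and 146 to 275 FPKM in P (median 192), with a difference of -0.33 (adjusted p = 0.717 in limma). GS9, AN7 and AN6 were its highest lines. Nnat, a small membrane protein of the brain, had a difference as large as that of Zrsr1 with a wider spread, at -0.47 (SE 0.35, unadjusted p = 0.194), from 17.1 to 54.1 FPKM in F and 21.8 to 194.7 FPKM in P. Snrpn itself, which shares a transcript with Snurf, had a mean of 0.236 FPKM and was not tested, so the division of reads between the names is uncertain.

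Meg3, Rian and Dlk1, of the imprinted Dlk1-Dio3 region, had differences above 0 in AI and below 0 in AN with an adjusted interaction p of 0.285 each in limma. Fitted on the AN lines alone, their unadjusted p-values were 0.293, 0.424 and 0.0547, and on the AI lines alone 0.00222, 0.00705 and 0.0249. The noncoding RNA Meg3 (Gtl2) had 69.8 to 123 FPKM in F and 27.7 to 141 FPKM in P, a shared difference of 0.38 (adjusted p = 0.730 in limma) made of -0.24 in AN and 1.17 in AI. Rian gave 0.42 (-0.17 in AN, 1.19 in AI). Dlk1, a membrane protein of the Notch ligand family, gave 0.085 (-0.30 in AN, 0.58 in AI). Rtl1, under the filter, had 0.458 to 1.35 FPKM in F and 0.249 to 1.31 FPKM in P (exact permutation p = 0.332). Zrsr1, Zdhhc18, Dpcd, Plch1 and Grb10 had one sign in both origins. For Zrsr1, Zdhhc18, Dpcd and Plch1 this follows from their separation in both origins. Grb10 had a small p for the shared difference, which favours one sign, so this is no independent evidence.

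**Figure D3:**
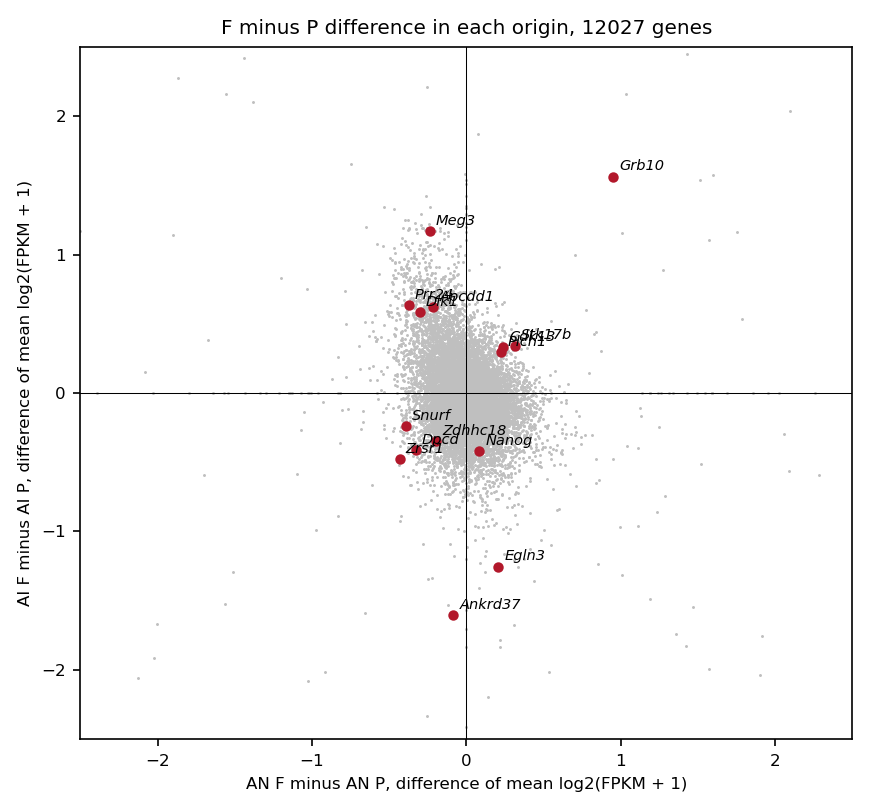
F minus P difference of log2(FPKM + 1) in AN (x axis) and in AI (y axis) for the tested genes (grey; 66 lie outside the axes), with 15 named genes in red. Grb10, Stk17b, Cdk13 and Plch1 lie in the upper right, Zrsr1, Dpcd, Zdhhc18 and Snurf in the lower left, and Meg3, Dlk1 and Egln3 in the quadrants of opposite sign.

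Over all 12027 genes the differences in AN and AI had a Spearman's rho of -0.262, across genes. Tested as an interaction, the difference between the AI and AN effects reached an adjusted p under 0.05 for 0 genes (0%) in limma, and an unadjusted p under 0.05 for 2009 genes (16.7%). The genes with the smallest p were Prr24 (1.01, AI minus AN), the oxygen-sensing hydroxylase Egln3 (-1.46), Ccdc112 (-1.13), Meg3 (1.41) and the Wnt inhibitor Apcdd1 (0.84), each at an adjusted p of 0.285. Without AI9, 651 genes passed the adjusted threshold. No other single line gave more than 1.

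No pluripotency factor had its F and P lines on separate sides in both origins. Of 25 tested, 1 was lower (Tdgf1, a co-receptor of Nodal, 4%) and 0 were higher at an unadjusted p under 0.05. Over all genes, 4.42% were lower and 2.2% higher. The median difference of the list was -0.070, with 0.13 in AN and -0.31 in AI. Pou5f1 had 615 to 818 FPKM in F and 657 to 1222 FPKM in P (-0.22, adjusted p = 0.725 in limma), and its 2 highest lines were GS4 and GS9. Nanog differed by -0.14 (47.7 to 116 FPKM in F, 78.1 to 131 in P), Sox2 by -0.13 and Sall4, a zinc finger factor, by 0.28. The 95% intervals of Sall4 (-0.080 to 0.65) and Nanog (-0.46 to 0.19) included 0.

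Genes of the hypoxia response and of glycolysis included 31 tested genes, of which 0 passed the adjusted threshold. A difference above 0 was found for 3 of the 31, against 5578 of all 12027 genes (46.4%). At an unadjusted p under 0.05, 6 were lower and 0 were higher, beside 4.42% and 2.2% of all genes. The median difference was -0.15, with -0.084 in AN and -0.27 in AI. The 6 were Ankrd37, Ndrg1, Aldoa, Aldoc, Pkm2 and, outside the naming rule and added once its value had been seen, Pgk1. The mean log2(FPKM + 1) over the list was 5.72 to 6.03 in F lines (median 5.90) and 5.84 to 6.41 in P lines (median 6.00), so that the groups overlapped. In AI it was 5.88 ± 0.15 (SD, n = 4) in F and 6.24 ± 0.16 (SD, n = 3) in P, and in AN 5.91 ± 0.10 (SD, n = 4) and 5.95 ± 0.069 (SD, n = 5).

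Ankrd37, a target of the hypoxia-inducible factor HIF1, had 2.54 to 8.12 FPKM in F (median 3.91) and 4.55 to 23.1 FPKM in P (median 6.82). The 2 high values were those of GS4 (23.1) and GS9 (12.2), and the difference of -0.75 was made of -0.084 in AN and -1.60 in AI. Aldoa and Aldoc, aldolases of glycolysis, differed by -0.22 and -0.39, and Ndrg1, a gene induced by hypoxia, by -0.36. Pkm2, the pyruvate kinase gene, had 1985 to 2684 FPKM in F (median 2426) and 2389 to 3576 FPKM in P (median 2655), with a difference of -0.20. The glucose transporter Slc2a1 (-0.22) and the glycolytic enzyme Gapdh (-0.15) were lower by amounts that did not reach an unadjusted p of 0.05. Hif1a itself was not lower, with a difference of 0.13 (unadjusted p = 0.0854). The median transcript of the list (2662 bases) is somewhat shorter than that of all genes, and its median difference was -0.14 after the length trend of each line was removed. Without the GS lines it was -0.054.

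**Figure D4:**
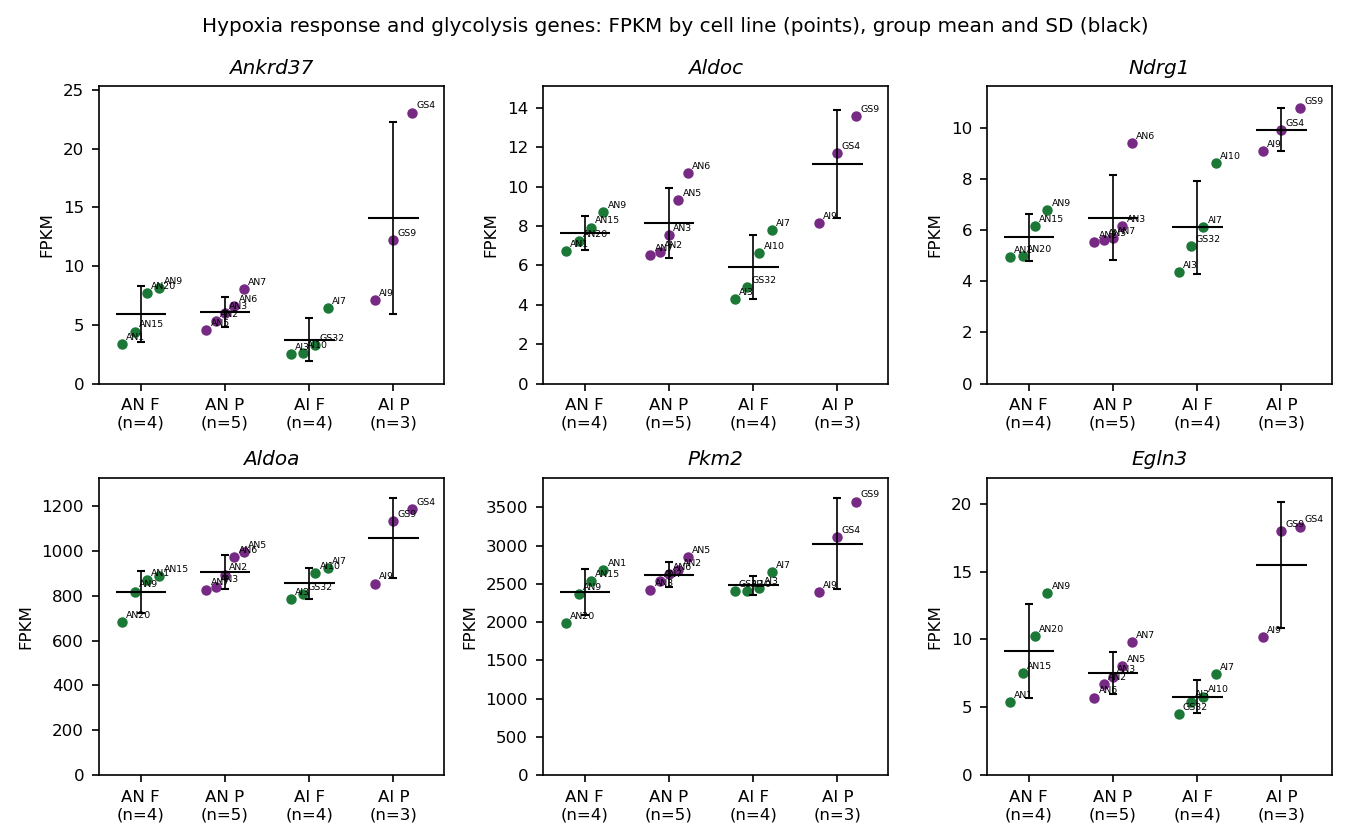
FPKM of 6 hypoxia response and glycolysis genes in each cell line (points), with group mean and SD (black). GS4 and GS9 have the highest values of Ankrd37, Aldoc, Ndrg1, Aldoa, Pkm2 and Egln3, and the AN F and AN P lines overlap for each of the 6.

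Fibroblast markers, which can come from feeder cells or from differentiated cells, were higher in F in AI and lower in F in AN by the median. Of 34 tested, 33 had a shared difference above 0, against 46.4% of all genes, and 0 reached an unadjusted p under 0.05. The median was 0.25, made of -0.25 in AN and 0.91 in AI. Summed FPKM of the 10 defining markers was 469 to 959 in AN F and 607 to 1237 in AN P, and 592 to 1325 in AI F and 247 to 1073 in AI P. With the mean of the 34 markers as a term, 448 genes were higher and 440 lower in F at an unadjusted p under 0.05. The genes with an interaction at that level fell from 2009 to 145. Without the GS lines the list median was -0.24.

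Insulin and IGF receptor signalling genes, the pathway that Grb10 restrains, held 39 tested genes. Of these, 3 were higher (7.69%) and 0 were lower at an unadjusted p under 0.05, beside 2.2% and 4.42% of all genes. Grb10 and Rictor were among the 3 higher. Rictor, a subunit of mTOR complex 2, differed by 0.22. Rictor had 4.47 to 7.75 FPKM in F (median 5.20) and 3.96 to 4.92 FPKM in P (median 4.55), and AN20 was its highest line. Its transcript is long (9311 bases), and the median of the list went from 0.070 to -0.00043 with the length trend removed.

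Genes that write, read or erase chromatin marks showed small differences. Of 18 histone lysine demethylase genes tested, 2 were higher (11.1%) and 0 lower at an unadjusted p under 0.05. Over all genes, 2.2% were higher and 4.42% lower. The 2 were Jmjd1c and Kdm6a, which acts on lysine 27 of histone H3, and the latter differed by 0.19. DNA methylation genes (23 tested) and Polycomb genes (28 tested) had 0 in either direction, with medians of 0.026 and 0.021. Their most expressed members, Trim28, a corepressor that guards imprints, and Rbbp7, a histone-binding subunit, differed by 0.031 and -0.027. Among 286 zinc finger protein genes tested, 5 were higher and 3 lower at an unadjusted p under 0.05, and the median of 0.030 was made of 0.14 in AN and -0.12 in AI. Zfp644 (0.25) and Zfp191 (0.23) were among those higher, with long transcripts of 5785 and 5732 bases, and Zfp61 (-0.29) and Zfp414 (-0.25) among those lower, with 2480 and 1211 bases. The 40 M phase genes had the same pair of signs, with medians of 0.18 in AN and -0.19 in AI. Among them, 1 was higher (Cenpe, a kinetochore motor, 2.5%) and 0 were lower.

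**Figure D5:**
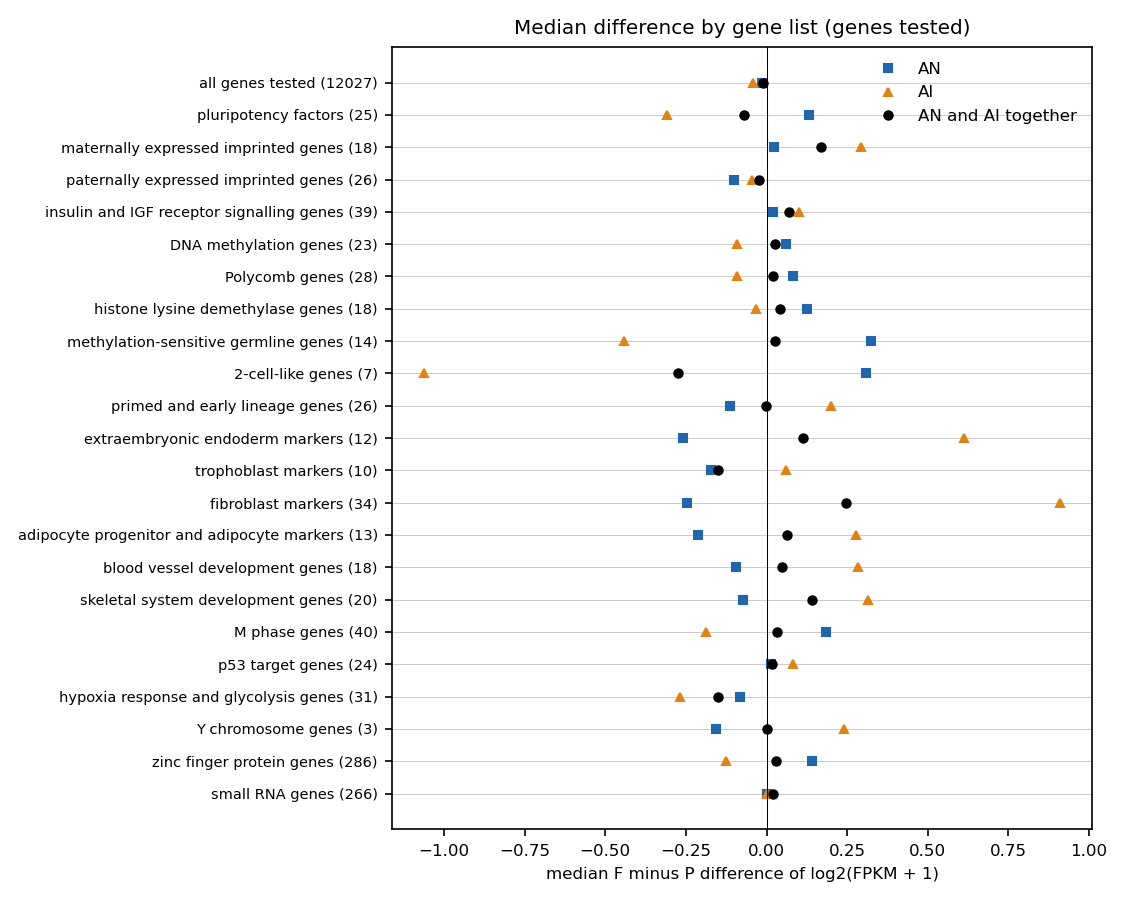
Median F minus P difference of log2(FPKM + 1) for each gene list and for all tested genes, in AN (squares), AI (triangles) and both together (circles), with the number of genes tested in parentheses. The medians of the hypoxia and glycolysis list, of paternally expressed imprinted genes and of all tested genes lie below 0 in both origins. Those of fibroblast, 2-cell-like, germline and M phase genes have opposite signs in AN and AI.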

How the data were processed

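RNA of 16 mouse cell lines was sequenced as single-end 50-base reads, with 1 library per line. The authors mapped reads to mm9 and deposited 1 FPKM value per gene name and line, and the submitters' processing notes name TopHat2 2.1.0, HTSeq and Cufflinks 2.2.1. The depth behind each value is unknown, because FPKM values carry no read counts. The deposited FPKM values were used as log2(FPKM + 1), and the 12027 genes whose mean over the lines was 1 FPKM or more were tested. F was compared with P in limma 3.58.1 (R 4.3.3) with origin as a block, the trend option, and p-values adjusted by Benjamini and Hochberg's method (threshold 0.05). The difference between origins was an interaction term. The authors used Cuffdiff, which needs reads and was not run.

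Single genes were also compared by exact permutation within origins in Python 3.11.15 (4410 arrangements, two-sided as 2 times the smaller tail, smallest p 0.000454). Of 78 such tests, 41 had a p under 0.05, most on genes picked for a small p in the same comparison. Named genes were the 10 with the smallest p in each direction (2 small RNAs, Snora78 and Snord15b, were skipped), those separated in both origins, 9 genes fixed by name, for each list the highest-expressed member and up to 4 with the smallest unadjusted p under 0.05, and the 5 with the smallest interaction p. The members and lists were chosen with earlier results of these data known, and lists are described by counts and medians without tests. The values of 1 gene that the rule names are not reported here. Separation of all 8 F from all 8 P lines was a later choice, made once the values were known.

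The fit was tested on simulated data for 12027 genes, with normal noise drawn independently for each gene. With 200 genes changed by a log2 change of 0.5, 1 and 2, it recovered 131, 188 and 196, with 11, 3 and 6 false calls, and it made 0 calls with no change. For the interaction, 0, 137 and 189 were recovered. Gene names were matched to GENCODE vM1 (mm9) for positions, transcript length and GC content. Alternatives were another pseudocount, other filters, quantile and median-ratio scaling, other blocks, terms for passage and for fibroblast markers, array weights, other priors, and leaving out lines. Removing each line's length and GC trends, and leaving out AN6 with GS9 or AN9 and AN20 with GS9, were chosen once the values were known.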

Additional observations from a re-analysis of the deposited data

Results flagged for a closer look

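Of 169 groups of 4 or 5 lines (AN F, AN P and AI F for each named gene), 11 held 1 line that stood apart from the rest. The gap took most of the group's range, and the lines were AI7, AI10, AN6, AN15 and AN20. Chance flags about 1 in 20 groups, which is 8.45 here. The 3 AI P lines were too few to examine.

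Among AI F lines, AI10 had the highest Wac (24.6 FPKM against 21.1 to 21.6 in the others), Jag1, a Notch ligand (8.94 against 4.80 to 5.09), and Tgfbr1, a TGF-beta receptor (14.2 against 9.78 to 10.1). AI7 had the highest AA960436 (15.1 against 12.4 to 12.8), Tdgf1 (554.5 against 506.4 to 509.4) and the small RNA Snord12 (13776 against 8493 to 8684). Among AN F lines, AN20 had the lowest Dpcd (14.0 against 17.0 to 17.4) and the lowest Pou5f1 (712 against 813 to 818), and AN15 had the highest Apoe, an apolipoprotein (336 against 248 to 259). Among AN P lines, AN6 had the highest Apoe (345 against 284 to 299) and the highest Ndrg1 (9.42 against 5.54 to 6.17). AN6 also had the second lowest slope over transcript length (-0.12), and the part of that slope in these values was not tested. No named gene had all F lines above P in one origin and below P in the other, and the interaction test gave 0 genes at an adjusted p under 0.05.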

How the results depend on the processing

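In every alternative run with adjusted p-values, F was higher for 0 genes and lower for 0. The unadjusted p gave 264 higher and 532 lower, and 2009 for the interaction. Zrsr1, Grb10, Zdhhc18, Dpcd and Cdk10 kept their sign and an unadjusted p under 0.05 in limma in all 39 alternatives. In that order, they ranged over -0.51 to -0.40, 0.58 to 1.56, -0.35 to -0.14, -0.41 to -0.24 and -0.48 to -0.23. Plch1, Lrrc61 and Wwox did so in all 38 of theirs, and Gm5918 in all 36. These genes were picked for a small p in the same lines, so this stability is no independent evidence. Median-ratio scaling gave 391 higher and 387 lower at an unadjusted p under 0.05 (50.3% higher against 33.2%), quantile normalization 318 and 414, and array weights 116 and 236. Without AN9, AN20 and GS9 the counts were 98 and 188, without the GS lines 267 and 217, and leaving out 1 line gave 139 (without AN20) to 408 (without AI9) higher and 298 (without GS9) to 908 (without AI9) lower. The cause was not tested. Genes with F above P in both origins numbered 0 with a minimum of 5 FPKM and with the length trend or the length and GC trends removed, 2 with quantile or median-ratio scaling or without GS9 and GS32, 3 without AN9, AN20 and GS9, and 10 without the GS lines. Leaving out 1 line gave 1 to 11. Genes with F below P in both numbered 5 with the length trend removed and 9 without the GS lines or without AN9, AN20 and GS9, and 3 to 19 with 1 line left out. The interaction gave 4 genes without the GS lines, 1 without AN6 and GS9, 1 without AN9, AN20 and GS9, and 0 to 651 (without AI9) with 1 line left out. In the AN lines alone, the difference turned sign for Dlk1 (-0.30), Meg3 (-0.24), Rian (-0.17), Nanog (0.082), Sox2 (0.023), Prr24 (-0.37), Egln3 (0.21), Ccdc112 (0.18) and Apcdd1 (-0.22), and in the AI lines alone for Cenpe (-0.036). Snora19, listed at 0 in all AI lines, gave 0 there. Without the GS lines it turned for Dlk1 (-0.10), Sox2 (0.038), Prr24 (-0.16) and Apcdd1 (-0.065). It turned for Prr24 with 3 blocks (-0.033), without GS9 and GS32 (-0.024) and, like Dlk1 (-0.017), with a fibroblast term (-0.045). With 1 line left out Dlk1 ranged from -0.0091 to 0.17 and Prr24 from -0.028 to 0.16. No paired analysis was possible because the groups share replicate numbers only by accession order.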

Other observations

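Genes of the 2-cell-like state, a rare and transient state of stem cells, and germline genes kept silent by methylation had opposite signs in the origins. Of 7 tested 2-cell-like genes, 0 reached an unadjusted p under 0.05, with a median difference of -0.28, 0.31 in AN and -1.06 in AI. The mean log2(FPKM + 1) of the list was 1.14 to 2.60 in F lines and 1.34 to 3.61 in P lines. Of 14 germline genes, 1 was lower at that level (Tdrkh, of the piRNA pathway, -0.32, 7.14% of the list) and 0 were higher. The medians were 0.32 in AN and -0.44 in AI. Of 12 tested extraembryonic endoderm markers, 10 had a shared difference above 0, against 46.4% of all genes. Their median was 0.11, with -0.26 in AN and 0.61 in AI. At an unadjusted p under 0.05, 1 was lower (Apoe, -0.31, 8.33% of the list) and 0 were higher. Blood vessel and skeletal development genes had 1 higher gene each, Jag1 (0.32, 5.56% of the list) and Tgfbr1 (0.23, 5%). Adipocyte genes had 1, Ebf1, a transcription factor (0.24, 7.69%). The p53 targets had 1 in each direction, Eda2r (0.21) and Ei24 (-0.21), each 4.17%. Over all genes, 2.2% were higher and 4.42% lower. Primed and early lineage genes (26 tested), trophoblast markers (10 tested) and Y chromosome genes (3 tested) had 0 in either direction.

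Of 266 small RNA genes tested, 3 were higher (1.13%) and 11 lower (4.14%) in F at an unadjusted p under 0.05. These shares were below the 2.2% and 4.42% of all genes, and the list median was 0.021. Snora78, a guide RNA for pseudouridine, had 9.12 to 22.6 FPKM in F and 14.4 to 33.8 FPKM in P (-0.87), and Snord15b, a guide RNA for methylation, 33.5 to 87.3 and 65.0 to 107 (-0.63). Snora19 was listed at 0 in 13 lines and at 1730.1 to 4049 FPKM in AN9, AN15 and AN20. FPKM of genes this short rests on few reads per unit and on the host genes that overlap them.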
